A study of Mus musculus with 4 samples.

Results

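The genes described here are the 3 VEGF receptor genes Kdr, Flt1 and Flt4 and the 2 neuropilin genes Nrp1 and Nrp2, 5 of the 31253 genes in the deposited matrices, taken by their symbols. Their unique molecular identifiers (UMIs, counts of single captured transcripts) were followed through 22 lung cell types and compared between genotypes. The libraries held single cells of whole lungs from WT mice and from mice of the genotype Vegfr2Y949F, which carries a changed tyrosine in the protein encoded by Kdr. All mice had the C57BL/6J background, were 6 to 8 weeks old and had been kept in hypoxia for 6 weeks, an exposure known to remodel the vessels of the lung. Each genotype had 2 libraries, named by the set letters A and B, and each library pooled 2 mice, 8 mice in all. Lungs kept in normal oxygen were not analysed here, so no value below compares hypoxia with another state. What the set letter stands for is not given in the sources used here, and p-values measure the spread between these 4 pools.

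VEGF receptors are tyrosine kinases of the endothelial surface. Kdr encodes VEGFR2, through which VEGF-A drives most endothelial growth, survival and permeability. Flt1 encodes VEGFR1, which binds VEGF-A, VEGF-B and placental growth factor, signals weakly in endothelium and is also made as a soluble form that holds ligand away from VEGFR2. It also serves as a receptor on monocytes and macrophages. Flt4 encodes VEGFR3, the receptor for VEGF-C and VEGF-D on lymphatic vessels. Nrp1 and Nrp2 encode co-receptors with short cytoplasmic tails that bind both VEGFs and class 3 semaphorins, Nrp1 mostly beside VEGFR2 and Nrp2 mostly beside VEGFR3. Lung capillaries hold 2 endothelial types, general capillary cells and aerocytes, and aerocytes, which line the thin air-facing side of the alveolus, are known for high Kdr.

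The mutated residue lies in the insert that divides the kinase domain of VEGFR2 and is known as a binding site for the adaptor TSAd. Kdr (ENSMUSG00000062960) occupies chromosome 5, 75932827 to 75978458, on the minus strand of GRCm38, the assembly called mm10. In the gene's annotated transcript of 30 exons, codon 949, counted from the start codon, encodes tyrosine and lies in exon 21, at chr5:75948869-75948871. The reference coding sequence around it, 30 bases on either side at chr5:75948839-75948901, is shown to place the changed residue, with the codon in capitals and written along the gene's own strand.
Kdr codon: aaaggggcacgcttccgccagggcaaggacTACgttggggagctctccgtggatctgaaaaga
The codon is 2787 bases upstream of the transcript's annotated end. The matrices give counts per gene and hold no base calls, so the Kdr UMIs below are those of the gene and cannot show which allele was read, and they do not check the genotype labels. For the same reason the soluble and the membrane-bound forms of Flt1 are counted together. The other genes lie at chromosome 5, 147561604 to 147726011 (Flt1, ENSMUSG00000029648, minus strand), chromosome 11, 49609263 to 49652739 (Flt4, ENSMUSG00000020357, plus strand), chromosome 8, 128358604 to 128503363 (Nrp1, ENSMUSG00000025810, plus strand) and chromosome 1, 62703285 to 62818695 (Nrp2, ENSMUSG00000025969, plus strand). The only counted gene that overlaps any of them is Gm29083, on the strand opposite to Nrp2, with 7 UMIs against 17668 of Nrp2 in the cells that passed the quality filters, counted before doublets were removed.

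The promoters of Kdr and Flt1 are shown because these genes peaked in different endothelial types, as given below. Each is the 250 bases before the start in RefSeq (GRCm38.p6), read along the gene's strand, with the GC box GGGCGG, searched on both strands, in capitals. The Kdr window is chr5:75978456-75978705 and the Flt1 window is chr5:147726012-147726261.
Kdr promoter: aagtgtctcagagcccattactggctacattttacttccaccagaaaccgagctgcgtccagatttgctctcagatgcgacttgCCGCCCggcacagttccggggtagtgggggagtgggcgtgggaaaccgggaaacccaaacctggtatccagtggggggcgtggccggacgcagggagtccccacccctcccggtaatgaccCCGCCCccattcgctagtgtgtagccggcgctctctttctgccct
Flt1 promoter: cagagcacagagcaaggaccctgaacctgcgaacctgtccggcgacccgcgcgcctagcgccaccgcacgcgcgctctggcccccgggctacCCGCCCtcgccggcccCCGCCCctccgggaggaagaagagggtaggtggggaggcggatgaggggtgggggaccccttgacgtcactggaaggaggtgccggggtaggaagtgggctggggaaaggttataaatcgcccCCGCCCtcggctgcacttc
The Kdr window held 2 GC boxes and the Flt1 window 3, and the windows of Flt4, Nrp1 and Nrp2 held 3, 1 and 5. At least 1 GC box is found in 32.7% of 32817 such windows in the mouse genome. The ETS core CCGGAA, on either strand, occurred once in the Kdr window and in none of the other 4, against 12.02% of all windows. The hypoxia response core ACGTG and the GATA core AGATAA occurred in none of the 5 windows, against 16.6% and 9.99% of all windows, and the E box CACCTG only in that of Flt4, against 17.2%. The GC content was 61.6% for Kdr and 70.4% for Flt1, against a median of 52.4% over all windows. Such matches describe letters in these windows and do not show that a factor binds.

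The 4 libraries held 11992 to 15160 barcodes and 83606389 to 96521589 UMIs, of which 9304 to 11446 cells per library were kept, 41250 in all, with median depths of 4312 to 5548.5 UMIs per cell. Any pair of libraries shared 23 to 42 cell barcodes, at most 0.432% of the smaller library. Clustering without the 5 genes gave 34 clusters, and 38422 cells took 1 of 22 names from marker genes, so a named type is a cluster that resembles that type. General capillary cells numbered 15930, aerocytes 3475, venous endothelial cells 1771, arterial endothelial cells 1735 and lymphatic endothelial cells 315. In the sum called all endothelial cells below, lymphatic cells are left out. Levels are CPM, a gene's UMIs scaled to a fixed total of UMIs of all genes, in the summed cells of a type in a library, and shares of cells with a UMI were taken after each cell had been thinned to 1000 UMIs. Types were drawn from the same cells, so differences between types are described and not tested, and CPM of different genes are not compared.

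Kdr was highest in aerocytes, in each of the 4 libraries. Aerocytes held 1374 CPM of Kdr in WT A, 1057 in WT B, 1197 in mutant A and 1282 in mutant B, the libraries of genotype Vegfr2Y949F being called mutant. Lymphatic endothelial cells followed with 596 CPM in WT A, 532 in WT B, 746 in mutant A and 592 in mutant B, below the lowest aerocyte value throughout. General capillary cells held 177 to 217 CPM, arterial cells 133 to 200.9 CPM and venous cells 156 to 169 CPM. The arterial range overlapped both others, while the venous range lay below that of general capillary cells. After thinning, 72.5% of aerocytes, on the mean of the libraries, had a Kdr UMI, against 46.8% of lymphatic, 17.1% of general capillary, 15.3% of arterial and 12.8% of venous cells. The unthinned shares were 98.2%, 81.6%, 54.6%, 56.1% and 51.7% in the same order. Of the 84743 Kdr UMIs in kept cells, aerocytes held 57.3% while making up 8.42% of cells, and general capillary cells 23.6% while making up 38.6%.

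**Figure D1:**
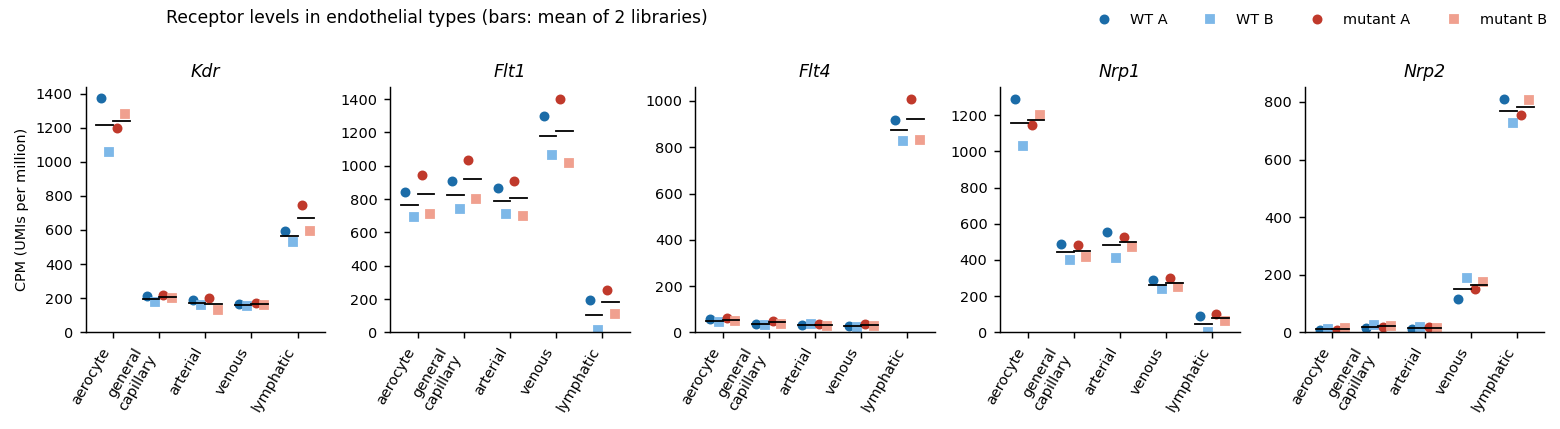
Level of each gene (CPM, linear axis from 0) in the 5 endothelial types, with a point for each library and a bar for the mean of the 2 libraries of a genotype, WT at left and mutant at right. Kdr and Nrp1 stand highest in aerocytes, Flt1 in venous cells, and Flt4 and Nrp2 in lymphatic cells, in both genotypes.

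The aerocyte values came from 2 clusters of unlike depth. Cluster 7, with 1777 cells and a median of 5192 UMIs per cell, held 1770 to 2394 CPM of Kdr and 1533 to 2054 CPM of Nrp1. Cluster 5, with 1698 cells and a median of 15323.5 UMIs, held 822 to 1013 CPM of Kdr and 861 to 1019 CPM of Nrp1. The 7 aerocyte markers summed to 6136 to 7222 CPM in cluster 7 and to 2587 to 2847 CPM in cluster 5, whereas the 6 general capillary markers summed to 694 to 1007 CPM in cluster 7 and to 3405 to 4343 CPM in cluster 5. Before doublets were removed by score, 13.4% of the cells of cluster 5 had a score in the removed range, against 0.504% in cluster 7, and the part of doublets that remained was not tested. Without cluster 5 the level of Kdr in aerocytes was 2153 CPM on the mean of the libraries in place of 1227 CPM, the level of Nrp1 was 1817 in place of 1166 CPM, and the remaining aerocytes held 36.2% of the remaining Kdr UMIs. Kdr stood highest in aerocytes with and without that cluster.

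Within general capillary cells Kdr stayed below its level in either aerocyte cluster. Clusters 0, 1 and 2, which hold most of these cells, had 135 to 199, 156 to 215 and 140 to 239 CPM of Kdr. Cluster 12, to which WT A gave 62 cells and WT B 50, against 601 from mutant A and 760 from mutant B, had 300 CPM in WT A, 190 in WT B, 294 in mutant A and 345 in mutant B. Its Flt1 level was 892 to 1295 CPM, above that of cluster 1 in the same library in each of the 4 libraries. The unequal cell numbers of this cluster are part of every genotype comparison of general capillary sums below, and their part in it was not tested.

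**Figure D2:**
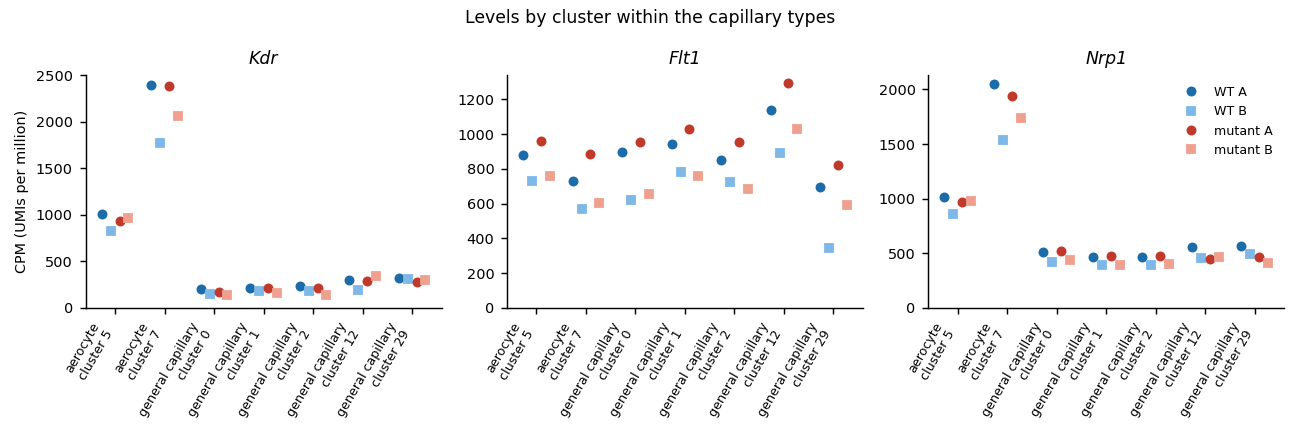
Level (CPM, linear axis from 0) of Kdr, Flt1 and Nrp1 in each cluster of the 2 capillary types, with a point for each library. Kdr and Nrp1 in aerocyte cluster 7 lie at 1770 to 2394 and 1533 to 2054 CPM, above those in aerocyte cluster 5 and in every general capillary cluster, while Flt1 in cluster 7 lies lower than in cluster 5 in every library.

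Flt1 peaked elsewhere. Venous endothelial cells held the most, 1296 CPM in WT A, 1064 in WT B, 1400 in mutant A and 1014 in mutant B. General capillary cells held 740 to 1037 CPM, aerocytes 689 to 947 CPM and arterial cells 697 to 910 CPM. The venous range overlapped that of general capillary cells, but within each library the venous value was the highest. Set A libraries were higher than set B libraries of either genotype in all 5 endothelial types for Flt1, so the order of types was read within libraries. The number of Flt1 UMIs per Kdr UMI, used only to compare types with each other, was 6.25 to 8.28 in venous cells, 3.93 to 4.79 in general capillary cells, 4.45 to 5.24 in arterial cells and 0.556 to 0.791 in aerocytes, with no overlap between aerocytes and the other 3 types. Without aerocyte cluster 5 it was 0.293 to 0.371 in aerocytes. In lymphatic cells it was 0.0241 to 0.341, below all aerocytes and overlapping the range without cluster 5.

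Flt4 was highest in lymphatic cells in each library. Lymphatic endothelial cells held 918 CPM in WT A, 828 in WT B, 1009 in mutant A and 832 in mutant B. Aerocytes came next with 45.0 to 60.8 CPM, and general capillary cells held 32.0 to 49.2, arterial cells 27.7 to 38.1 and venous cells 24.6 to 37.3 CPM, ranges that overlap from each to the next. After thinning, 54.2% of lymphatic cells had a Flt4 UMI, against 3.19% to 5.99% of cells on the mean in the other 4 endothelial types. Lymphatic cells made up 0.764% of cells and held 17.4% of Flt4 UMIs over the 4 libraries together, but this share varied with the number of lymphatic cells, from 4.57% in WT A and 3.92% in mutant A to 33.1% in WT B and 29.9% in mutant B. General capillary cells held 50.2%, 42.4%, 31.2% and 37.96% in the same order, less than lymphatic cells in WT B. The lymphatic name rests on Prox1, found in 89.5% of those cells, Mmrn1 in 97.8% and Reln in 89.5%. WT A and mutant A gave only 22 and 27 of these cells, against 161 in WT B and 105 in mutant B.

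Nrp2 shared that peak. It stood at 810 CPM in lymphatic cells of WT A, 728 in WT B, 755 in mutant A and 807 in mutant B. Among blood vessel types it was found mainly in venous cells, with 114 CPM in WT A, 189 in WT B, 151 in mutant A and 174 in mutant B, against 15.1 to 23.9 CPM in general capillary cells, 12.6 to 18.2 in arterial cells and 8.62 to 14.0 in aerocytes. Flt4 and Nrp2 were seen together in 13.6% to 37.0% of thinned lymphatic cells of a library, and Kdr and Flt4 together in 22.9% to 27.3%.

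Nrp1 followed Kdr among capillary cells and departed from it elsewhere. Aerocytes held 1289 CPM in WT A, 1028 in WT B, 1148 in mutant A and 1200 in mutant B. Arterial cells, with 410 to 553 CPM, and general capillary cells, with 398 to 487 CPM, overlapped, and venous cells held 238 to 300 CPM. In lymphatic cells, where Kdr was second highest, Nrp1 was low, with 87.9 CPM in WT A, 0 UMIs in WT B (which allows up to 3.21 CPM, taking 3 UMIs as the limit for counting error only), 100.02 in mutant A and 63.9 in mutant B. Flt1 in lymphatic cells was 195, 12.8, 255 and 108 CPM in the same order of libraries. The 6 general capillary markers summed to 1113, 569, 1855 and 804 CPM in these same cells, so both genes were lowest where those markers were lowest and highest where they were highest. The 7 aerocyte markers summed to 381, 122, 218 and 424 CPM, lowest in WT B too but highest in mutant B. In that cluster 14.2% of cells had a doublet score in the removed range. The part of capillary RNA in these values was not tested. After thinning, Kdr and Nrp1 were both seen in 48.0% to 56.8% of aerocytes of a library and in 5.07% to 6.83% of general capillary cells.

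**Figure D3:**
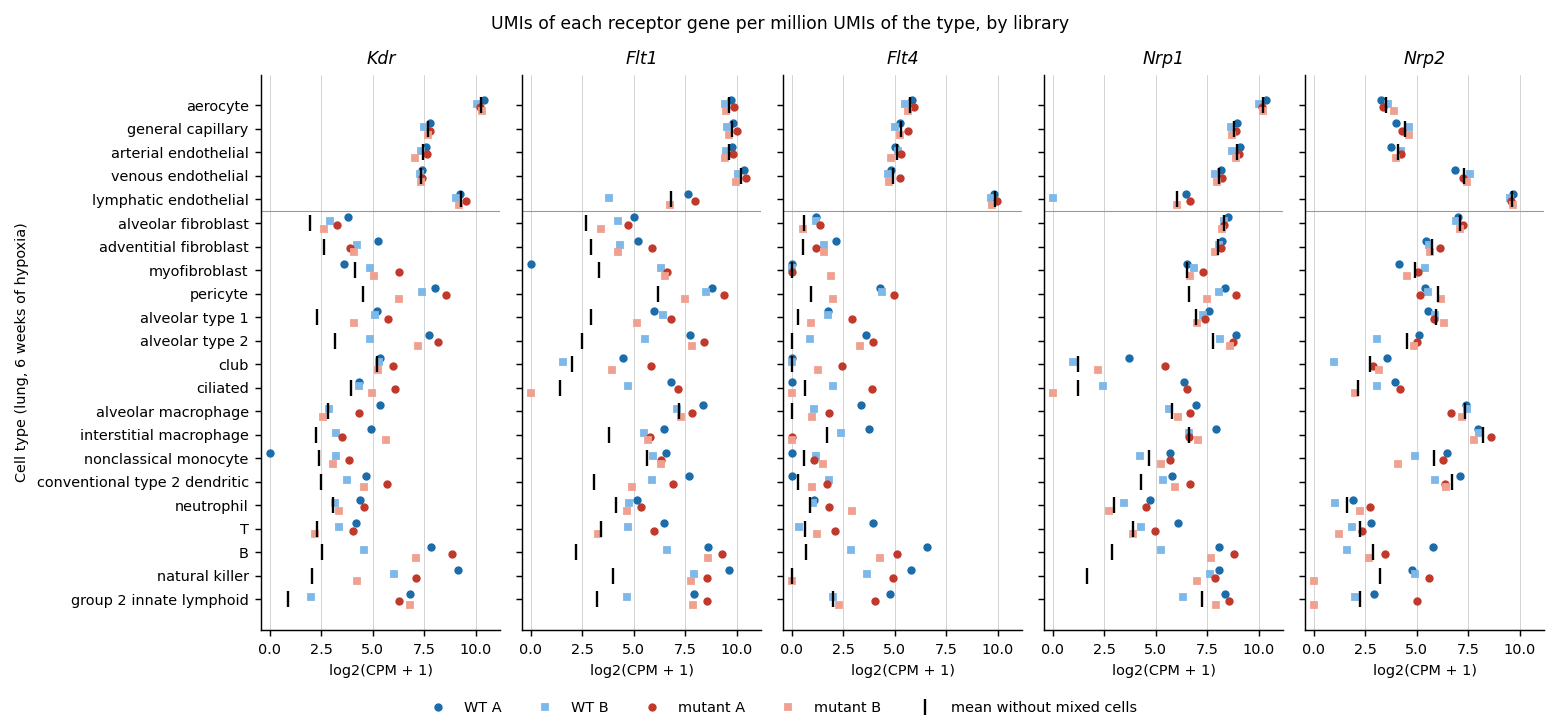
Level of each gene, as log2(CPM + 1), in 22 named types (rows), with a point for each library and a black tick for the mean over libraries after cells with marker genes of another lineage were left out. Endothelial types stand above the grey line; below the line the ticks for Kdr and Flt1 lie left of the points in many rows, such as pericytes and alveolar type 1 cells, while for Nrp1 and Nrp2 in alveolar and adventitial fibroblasts they lie among the points.

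Outside endothelium, endothelial RNA in droplets had to be set apart from expression. Each gene's level in a type was divided by its level in all endothelial cells of the same library, beside the same ratio for 5 endothelial genes, Cdh5, Cldn5, Tie1, Clec14a and Egfl7. RNA from endothelial cells in the mix of that sum would give all these ratios alike. RNA mainly from a single endothelial type would not, since mean Kdr was 1227 CPM in aerocytes and 203 CPM in general capillary cells. Which endothelial types any such RNA came from was not tested. Cells with at least 2 of the 5 endothelial genes, or at least 2 of 3 genes of another lineage than their own, are called mixed. The other lineages are blood, mesenchymal and epithelial, and the rule was chosen after seeing the data. Leaving out mixed cells lowers the ratio of the 5 genes by construction, so the comparison is also given with all cells kept. Mixed cells made up 11.5% to 45.7% of pericytes, and without them Kdr in pericytes was 14.7 to 26.5 CPM in place of 76.9 to 372 CPM. Kdr in pericytes was above each of the 5 genes in all 4 libraries either way, at 3.35% to 6.01% of its endothelial level without mixed cells, against 0.551% to 1.495% for the 5 genes pooled. With all cells kept the margin was narrow, with Kdr at 17.5% to 76.6% and the 5 genes pooled at 14.4% to 68.5%. Smooth muscle was the next best name of the pericyte cluster, and at resolution 2 a cluster of 238 smooth muscle cells was named apart. In B cells of mutant A Kdr stood at 456 CPM with all cells kept and had 0 UMIs without mixed cells, which allows up to 34.4 CPM. In alveolar type 2 cells of mutant A it stood at 291 CPM and, without mixed cells, at 6.96 CPM, from 1 UMI. The 564 CPM of natural killer cells of WT A came from 5 cells, and the 2 that were not mixed had 0 UMIs, which allows up to 513 CPM, so no fall was detectable there.

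Nrp1 in fibroblasts was far above that background. Alveolar fibroblasts, the most numerous stromal cells here, held 366 CPM in WT A, 322 in WT B, 321 in mutant A and 296 in mutant B. Adventitial fibroblasts held 300, 267, 289 and 238 CPM in the same order. Without mixed cells, Nrp1 in alveolar fibroblasts was 46.3% to 60.8% of its endothelial level, while the 5 endothelial genes pooled were at 0.514% to 1.11%. With all cells kept it was 48.3% to 61.0%, and the 5 genes were at 1.65% to 3.502%. Nrp1 was also above each of the 5 genes in all 4 libraries, with and without mixed cells, in alveolar type 1 and type 2 cells. Without mixed cells these held 89.7 to 156 CPM and 95.04 to 292 CPM. WT A gave only 8 alveolar type 2 cells before mixed cells were left out. The same held either way in interstitial macrophages (72.1 to 133 CPM without mixed cells), pericytes (77.7 to 117 CPM) and myofibroblasts (81.8 to 104 CPM). In alveolar macrophages, T cells and group 2 innate lymphoid cells it held in all 4 libraries only without mixed cells.

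Nrp2 was higher in several other types than in most blood vessel endothelium. Interstitial macrophages held 249 CPM in WT A, 264 in WT B, 391.9 in mutant A and 220.5 in mutant B, second to lymphatic cells with no overlap on either side. Alveolar macrophages held 102 to 174 CPM, alveolar fibroblasts 120 to 151 CPM and conventional type 2 dendritic cells 59.2 to 139 CPM, ranges that overlap with the venous one from each to the next. Alveolar fibroblasts held 31.2% of the 14884 Nrp2 UMIs left after doublets were removed and were the largest source, while making up 10.6% of cells. Without mixed cells the level of Nrp2 in interstitial macrophages was 697% to 1879% of that in all endothelial cells, and with all cells kept it was 643% to 1646%.

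Flt1 was read in some of the mononuclear phagocytes, where VEGFR1 is known as a receptor. Alveolar macrophages held 333.3 CPM in WT A, 135 in WT B, 229 in mutant A and 154 in mutant B, and without mixed cells 156, 119, 169 and 132 CPM. The latter values are 15.7% to 17.0% of the endothelial level in each library, whereas the 5 endothelial genes pooled were at 0.508% to 1.29% and Kdr at 0.420% to 3.25%. With all cells kept Flt1 was at 17.8% to 36.3% and the 5 genes at 1.90% to 18.01%, and Flt1 was above each of the 5 in all 4 libraries either way. The cluster named nonclassical monocytes held 33.6 to 70.4 CPM of Flt1 without mixed cells, above each of the 5 genes in all 4 libraries. Its marker score was 3.75 for nonclassical and 3.42 for classical monocytes. At resolution 2, 334 nonclassical and 372 classical monocytes were named apart, so the value cannot be assigned to nonclassical cells alone. In interstitial macrophages Flt1 was above each of the 5 genes in 0 of 4 libraries with all cells kept and in 1 without mixed cells. In conventional type 2 dendritic cells it was above them in 1 of 4 either way. Pericytes kept 58.8 to 89.3 CPM of Flt1 without mixed cells, at 7.44% to 8.77% of the endothelial level. With all cells kept, Flt1 in pericytes was above each of the 5 genes in only 3 of the 4 libraries.

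Kdr stood above the endothelial background in club cells, the secretory cells of the airway. They held 39.4 CPM in WT A, 38.2 in WT B, 63.0 in mutant A and 37.8 in mutant B. Without mixed cells the values were 30.8, 43.1, 38.6 and 31.0 CPM, or 6.64% to 11.5% of the endothelial level, while the 5 endothelial genes pooled were at 0.0765% to 0.255% and Flt1 at 0.0876% to 0.474%. With all cells kept, Kdr was at 8.47% to 12.96% and the 5 genes at 0.248% to 6.57%, and Kdr was above each of the 5 in all 4 libraries either way. Flt4 had 0 UMIs in club cells of each library without mixed cells, which allows up to 4.63 CPM in the shallowest. These values rest on few cells: 24, 36, 51 and 22 in the 4 libraries, of which 15, 28, 22 and 15 were not mixed.

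**Figure D4:**
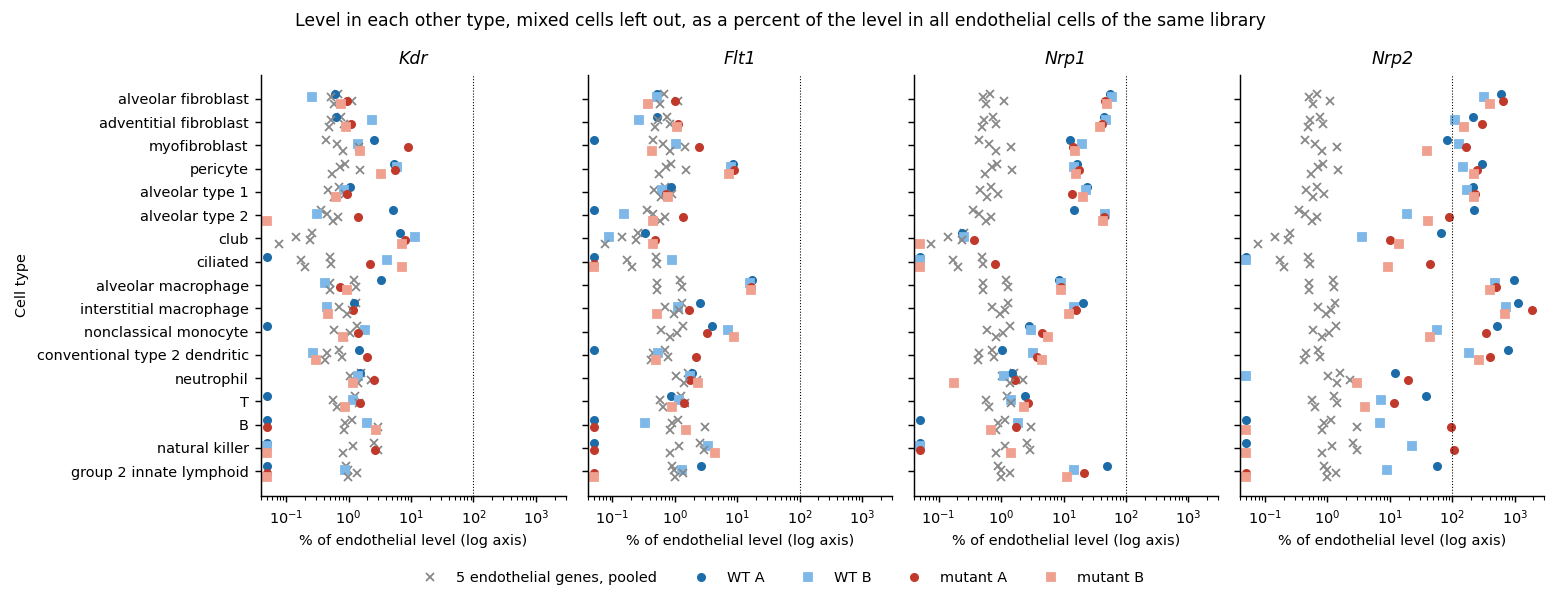
Level of Kdr, Flt1, Nrp1 and Nrp2 in each of 17 non-endothelial types without mixed cells, as a percent of the level in all endothelial cells of the same library (log axis, values under 0.05 drawn at 0.05, dotted line at 100), with grey crosses for 5 endothelial genes pooled. Coloured points far to the right of the crosses mark Flt1 in alveolar macrophages, Kdr in club cells, and Nrp1 and Nrp2 in fibroblasts.

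The genes whose levels ran most like each member over the 22 types were read from 11288 genes with at least 20 CPM in a type, by Pearson correlation of log2(CPM + 1). The points share libraries and depth, so the correlations are descriptions with no p-value. Mixed cells were kept in these levels, and the part of endothelial RNA in other types in the correlations was not tested. Kdr was closest to Tspan12 (r = 0.941), Reep1 (0.938), Myct1 (0.928), Ackr2 (0.928) and Cldn5 (0.920). Flt1 was closest to the endothelial genes Adgrl4 (0.972), Ptprb (0.970), which encodes the phosphatase VE-PTP, and Gpihbp1 (0.967), then to Klhl5 (0.967) and Ccdc85a (0.964). Flt4 was closest to Apold1 (0.909), Ackr2 (0.909), Sema6a (0.907), Mmrn2 (0.886) and Nxpe2 (0.885). Nrp1 was closest to Scn7a (0.910), Cd34 (0.908), Zfp697 (0.905), Apbb2 (0.894) and Mxra7 (0.892). Among the genes closest to Nrp2 were Dab2 (0.840), Fcgrt (0.833), Rab3il1 (0.801) and Hivep3 (0.769), lower correlations than those given for the other members. Between members r was 0.850 for Kdr and Flt4, 0.768 for Kdr and Flt1, 0.577 for Kdr and Nrp1 and 0.229 for Flt4 and Nrp2.

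The genotype comparison asked whether the mutation of Kdr goes with other levels of its own transcript or of its relatives. In all endothelial cells, none of the 5 genes was called by edgeR's quasi-likelihood test with Benjamini-Hochberg adjustment. Of 14010 genes tested there, 0 were called at an adjusted p under 0.05 (0% of genes). An unadjusted p under 0.05 was reached by 155 of them, and DESeq2 called 6. Kdr stood at 465 CPM in WT A, 375 in WT B, 486 in mutant A and 440 in mutant B. Mutant A was above both WT libraries, mutant B lay between them, and both set A libraries were above both set B libraries. Its log2 fold change, mutant against WT, was 0.08 (SE 0.18, edgeR adjusted p = 1.00). Flt1 had 919, 757, 1018 and 791 CPM in the same order and a log2 fold change of 0.04 (SE 0.20), with both set A libraries above both set B libraries. Nrp1 had 652, 528, 663 and 585 CPM and a log2 fold change of 0.02 (SE 0.18), again with set A above set B.

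Flt4 and Nrp2, less often read in these cells, were not called either. Flt4 had 39.8, 34.5, 50.4 and 37.9 CPM in all endothelial cells, with set A above set B, and its log2 fold change was 0.18 (0.16 SE, adjusted p = 1.00 by edgeR). Nrp2 had 21.2, 36.5, 23.8 and 34.3 CPM and a log2 fold change of -0.04 (SE 0.32), with set B above set A. For 0 of the 5 genes did both mutant libraries lie beyond both WT libraries, which 22.2% of all genes tested did. With 2 libraries a group an exact permutation test cannot go below p = 0.333, and a p over the threshold does not show that levels were equal. The sum over endothelial types also moves with their mix, so each type was tested alone as well.

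**Figure D5:**
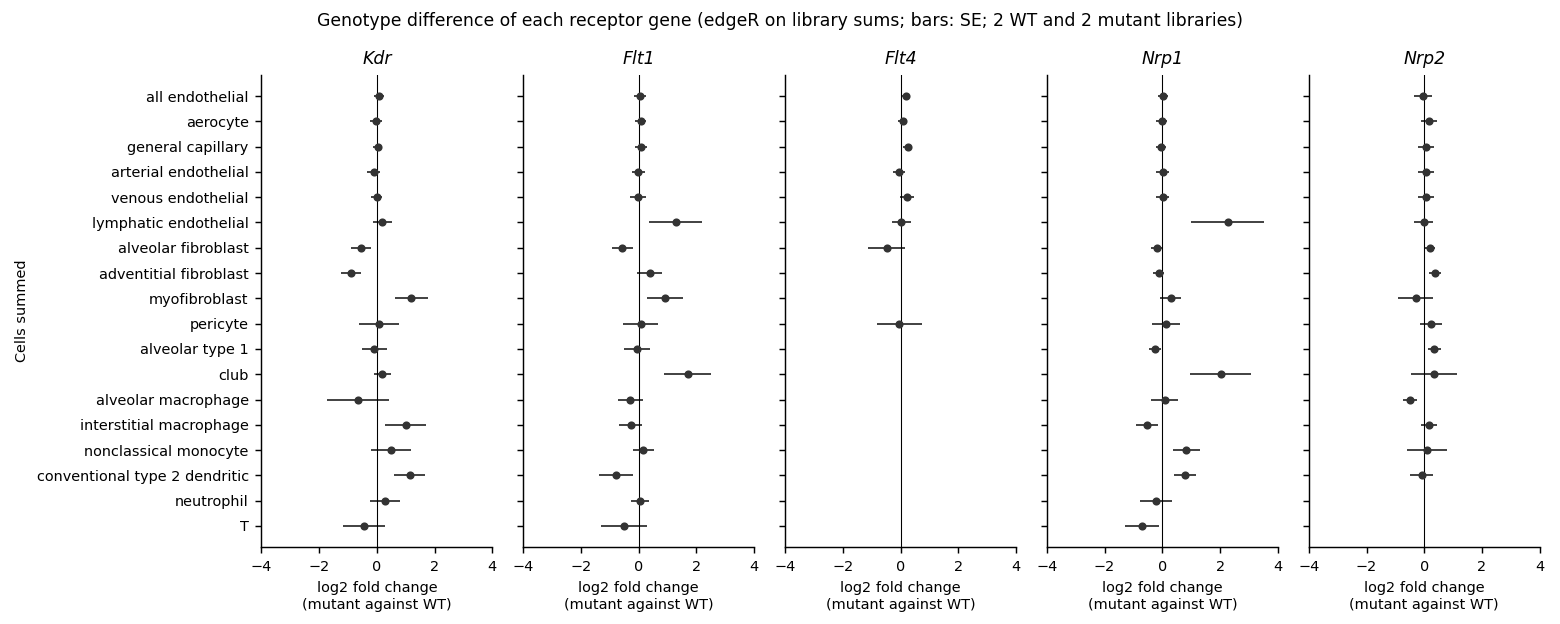
Log2 fold change, mutant against WT, of each gene in all endothelial cells and in 17 cell types (rows), with SE bars from edgeR on 2 WT and 2 mutant libraries; a row with no point had too few counts to be tested. Points of endothelial types lie near 0 with short bars, apart from Flt1 and Nrp1 in lymphatic cells, and wide bars are also seen for Nrp1 in club cells and Kdr in alveolar macrophages.

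Of 73 tests of a member in 17 types with at least 20 cells in every library, 0 were called by edgeR with all 4 libraries and no replicate block, and 1 had an unadjusted p under 0.05. The background of calls was 0% in 14 of these types, 0.0163% in alveolar fibroblasts, 0.00986% in arterial cells and 0.0295% in club cells. In aerocytes, where Kdr was highest, its log2 fold change was -0.02 (SE 0.20), and without cluster 5 it was 0.05. In lymphatic cells the log2 fold change of Flt4 was 0.02 (SE 0.33), and in venous cells that of Nrp2 was 0.05 (SE 0.27).

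In 9 of the 73 tests the genotypes did not overlap, where 19.5% to 33.1% of all genes tested in a type did not. Flt4 in general capillary cells was 36.8 and 32.0 CPM in WT A and B and 49.2 and 36.9 CPM in mutant A and B, a log2 fold change of 0.25 (0.16 SE, adjusted p = 1.00 by edgeR), and 23.9% of genes there did not overlap either. In alveolar fibroblasts Nrp1 was lower in both mutants, by a log2 fold change of -0.20 (SE 0.18), and Nrp2 higher, by 0.18 (SE 0.17), where 24.8% of genes did not overlap. The smallest unadjusted p, 0.0269, belonged to Kdr in adventitial fibroblasts, with 37.3 and 17.6 CPM in WT and 13.8 and 16.1 CPM in mutants, a log2 fold change of -0.90 (0.36 SE, adjusted p = 1.00 by edgeR), where 30.3% of genes did not overlap. With doublet-scored cells kept this value was 0.11, of the opposite sign. Mixed cells made up 19.7% and 19.1% of these fibroblasts in WT and 21.98% and 8.00% in mutants, and without them Kdr stood at 2.93, 8.76, 5.21 and 3.95 CPM, in none of the 4 libraries above each of the 5 endothelial genes. Nrp2 in adventitial fibroblasts was higher in both mutants, by 0.37 (SE 0.22). In myofibroblasts, where 29.9% of genes did not overlap, Kdr and Flt1 were higher in both mutants, by 1.19 (SE 0.58) and 0.91 (SE 0.63). WT A gave 40 of these cells, with 0 UMIs of Flt1, which allows up to 17.0 CPM. Mixed cells made up 2.50% and 11.7% of myofibroblasts in WT and 18.8% and 12.3% in mutants. With all cells kept, each gene was above each of the 5 endothelial genes in 1 of 4 libraries. Without mixed cells Kdr was above them in 4 libraries and Flt1 in 0. Nrp1 in conventional type 2 dendritic cells was higher in both mutants, by 0.78 (SE 0.39), where 29.8% of genes did not overlap. WT A gave only 22 of these cells. Mixed cells made up 27.3% and 16.5% of them in WT and 25.6% and 23.3% in mutants. Without mixed cells Nrp1 there was 6.70 to 26.3 CPM in place of 40.3 to 99.3 CPM. It was above each of the 5 endothelial genes in 2 of 4 libraries with all cells kept and in 3 without mixed cells. Nrp2 in alveolar macrophages was lower in both mutants, with a log2 fold change of -0.51 (SE 0.24), where 31.0% of genes did not overlap.

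In lymphatic cells Flt1 and Nrp1 had wide errors. Flt1 there had a log2 fold change of 1.29 (0.92 SE, adjusted p = 1.00 by edgeR) and Nrp1 of 2.26 (SE 1.26, adjusted p = 1.00). WT B had the lowest value of both genes, with 0 UMIs of Nrp1, so the fitted value for Nrp1 depends on how that 0 is handled. Without WT B the values were -0.28 and -0.24, so WT B decided their direction. Flt1 passed the threshold without WT A, at 3.57 (adjusted p = 4e-05 by edgeR), where WT B is the only WT library, and without mutant B, at 1.96 (adjusted p = 0.0401 by edgeR).

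Whether the genotype difference itself varied between endothelial types was tested in a single edgeR model, each of 3 types against general capillary cells. Of 15 tests of members 0 were called. The smallest p belonged to Flt4 in arterial cells, -0.32 (SE 0.15), with an unadjusted p of 0.049 and an edgeR adjusted p of 0.914. Calls over the whole table were 0.0325% of 12304 genes for aerocytes, 0.0975% for arterial cells and 0.0163% for venous cells. For Kdr the differences were -0.03 (SE 0.15) in aerocytes, -0.13 (SE 0.16) in arterial cells and -0.05 (SE 0.16) in venous cells.

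Genes that act with these receptors were read from 6 lists in all endothelial cells, and 0 genes of any list were called in either direction. All genes tested had a median log2 fold change of -0.01, with 6839 above 0 and 7171 below. Of 5 measured VEGF family ligands 3 were above 0, with a median of 0.04, and Vegfc, the ligand of VEGFR3, had the smallest p, at 104, 111, 82.6 and 98.8 CPM in WT A, WT B, mutant A and mutant B (log2 fold change -0.30, SE 0.17). Vegfb stood at 11.4 to 14.1 CPM and Pgf at no more than 1.51 CPM. Of 28 genes of VEGFR2 signalling 13 were above 0, with a median of -0.02; the endothelial nitric oxide synthase gene Nos3 had 59.3, 62.0, 63.3 and 48.9 CPM, the phosphoinositide kinase subunit gene Pik3r1 98.5, 84.7, 117 and 94.6 CPM, and Src at most 1.18 CPM. Of 18 genes of receptor partners and trafficking 9 were above 0, with a median of -0.002; Myo6, a motor of endocytic vesicles, had 97.6, 88.5, 130 and 104 CPM (log2 fold change 0.26, SE 0.15), the phosphatase gene Ptprj a log2 fold change of -0.17 (SE 0.14) and the ubiquitin ligase gene Cbl one of 0.16 (SE 0.19).

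Of the 6 lists, written with earlier results of these libraries known, that of VEGF-induced genes held the lowest p-values, a description and not a test. Of its 14 genes 9 were above 0, with a median of 0.10, and 3 had an unadjusted p under 0.05. Esm1, a gene of endothelial tip cells, had 2.57 CPM in WT A, 2.29 in WT B, 6.31 in mutant A and 22.7 in mutant B, a log2 fold change of 2.54 (0.60 SE, adjusted p = 1.00 by edgeR). Both mutant libraries were above both WT libraries, where 22.2% of all genes tested had both mutant libraries beyond both WT libraries in either direction. Cxcr4, a chemokine receptor of tip cells, had 2.89, 3.19, 5.87 and 9.46 CPM (log2 fold change 1.29, SE 0.31), and Angpt2, an antagonist ligand of Tie2, had 2.84, 2.50, 4.89 and 6.62 CPM (1.05, SE 0.26). These unadjusted p-values were 0.00478, 0.0048 and 0.00616. Cluster 12, with its uneven cell numbers, is part of these sums.

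The last 2 lists had medians above that of all genes, as did every other list except that of VEGFR2 signalling. Of 12 semaphorins and plexins 9 were above 0, with a median of 0.08; Plxna1, a semaphorin receptor that pairs with neuropilins, had 33.9 and 36.7 CPM in WT and 49.2 and 44.4 CPM in mutants (log2 fold change 0.34, SE 0.14, unadjusted p 0.0414), while Sema3d and Sema3e stood at no more than 0.452 and 2.32 CPM. Of 18 transcription factors of endothelial genes 14 were above 0, with a median of 0.09; Prox1 had 3.07, 3.53, 4.64 and 4.92 CPM (log2 fold change 0.48, SE 0.22), Foxc1 -0.36 (SE 0.27) and Erg 0.17 (SE 0.15). The lists were written with earlier results of these libraries known, and a median above that of all genes is a description here.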

How the data were processed

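The authors deposited whole-number UMI counts per gene and cell for 4 single-cell libraries of 83606389 to 96521589 UMIs; Cell Ranger 6.1.1 is named per the file headers, and fastp, UMI-tools, Seurat 4.1.0 and mm10 per the submitters' processing notes. Cells with at least 500 genes and 1000 UMIs and under 15% mitochondrial UMIs were kept, and the top 8% by Scrublet score in each library were removed as doublets. Cells were clustered without the 5 receptor genes (scanpy 1.11.5, 40 principal components, 15 neighbours, Leiden resolution 1) and clusters named from markers. Counts were summed per type and library. Genotypes were compared with edgeR 4.0.16 (TMM, quasi-likelihood test, Benjamini-Hochberg over all genes, calls at an adjusted p under 0.05) in types with at least 20 cells in each library, and with DESeq2 1.42.0 as an alternative. The edgeR step was tested on simulated counts. Other alternatives were scaling, the low-count filter, stricter cells, doublets kept, resolution 2, thinning to 2000 UMIs, each library left out and the set letter as a block. Named genes were the members, the 5 genes most like each (1 is not reported here), and the 3 of each list with the smallest p. The members and lists were chosen with earlier results of these data known. Sequences and gene models are from RefSeq (GRCm38.p6) and the GRCm38 annotation.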

Additional observations from a re-analysis of the deposited data

How the results depend on the processing

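The 5 members were highest in the same type under every level setting and in each library alone. The aerocyte level of Kdr moved to 1585 CPM as a mean over cells and to 2153 CPM without cluster 5 (chosen with the values in view), and that of Nrp1 to 1401 and 1817 CPM. Nrp2 in lymphatic cells was 733 CPM as a mean over cells. Genes called between genotypes in all endothelial cells numbered 42 with no low-count filter, 12 with the set letter as a replicate block, 6 with DESeq2, and 1 to 33 with a library left out (17 without WT A, 33 without WT B, 1 without either mutant library). None of these counts includes a member. Calls of members over the 17 types numbered 2 with no low-count filter (Flt1 and Nrp1 in club cells), 2 with the replicate block (Flt1, 1.74, and Nrp1, 2.62, in lymphatic cells) and 1 to 5 with a library left out, 5 without mutant A, 4 without WT A and 1 without WT B or mutant B. Whether the set letter pairs libraries is not established with 2 pairs: the A-minus-B differences of the genotypes correlated at 0.607 over 11573 genes. In all endothelial cells the block changed no member's call (Kdr 0.09, Flt1 0.04, Flt4 0.18, Nrp1 0.02, Nrp2 -0.02). Leaving out a library turned the sign of several log2 fold changes, which ranged from -0.0480 to 0.22 for Kdr, -0.0782 to 0.17 for Flt1, -0.11 to 0.16 for Nrp1 and -0.41 to 0.42 for Nrp2 in all endothelial cells. The ranges were -0.18 to 0.17 for Kdr in aerocytes, -0.29 to 0.50 for Nrp2 in venous cells, and, in lymphatic cells, -0.0866 to 0.16 for Flt4, -0.28 to 3.57 for Flt1 and -0.24 to 8.49 for Nrp1. Where a group then had 1 library, it was assumed to vary like the other. The 8.49 sets both mutants against WT B alone, with 0 UMIs of Nrp1, and is no estimate of a fold change. Signs also turned for Nrp1 in all endothelial cells without cluster 5 (-0.00985), for Kdr in aerocytes with doublets kept (0.0321) or without cluster 5 (0.0530), and for Kdr in adventitial fibroblasts with doublets kept (0.11). The causes were not tested. Kdr in pericytes was 35.7 CPM at resolution 2 and 22.1 CPM without mixed cells. By rank correlation 1 of the 5 genes most like Kdr and 0 of those most like Flt4 stayed among the nearest 5.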
